A study of Mus musculus with 2 samples.

Results

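The chemokine ligand genes of mouse were followed through single-cell RNA sequencing (scRNA-seq) libraries of femoral cells from untreated and calcitriol-injected mice. The genes were chosen by name alone: every symbol of the gene list written as *Ccl* with a number and an optional letter, *Cxcl* with a number, *Cx3cl1* or *Xcl1*. This gave 44 rows of the 32285 in the list, which carried 38 distinct symbols because 5 symbols had more than 1 row, on chromosomes and on unplaced scaffolds. After filtering, 26 rows had at least 20 unique molecular identifiers (UMIs, each standing for 1 captured mRNA molecule) over both libraries and are described with their values. A further 5 rows had fewer (*Ccl12* and *Xcl1* 3 each, *Ccl22* 14, *Ccl17* 17 and *Ccl28* 19 UMIs), and 13 rows were at 0, among them *Ccl1*, *Ccl24*, *Ccl26*, *Ccl27b*, *Cxcl15*, every row of *Ccl21b* and *Ccl21c*, and the scaffold copies of *Ccl19*, *Ccl21a* and *Ccl27a*. Reads from near-identical copies such as those of *Ccl21a*, *Ccl19* and *Ccl27a* cannot be assigned to 1 copy with certainty. All counted UMIs of these symbols were on their chromosome 4 rows, and the values may miss reads shared between copies. The platelet chemokines *Pf4* (51 UMIs) and *Ppbp* (179 UMIs) are not matched by this naming and were not counted.

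The untreated group was 6 male C57BL/6J mice of 7 weeks. The calcitriol group was 6 mice of the same strain, sex and age that received 2.5 μg/kg calcitriol, the active form of vitamin D, by intravenous injection daily for 3 days, and femurs were taken 24 h after the last of the 3 injections. In both groups the femurs were pooled first and handled as 1 sample. The marrow was flushed, the bone was digested with collagenase and treated with EGTA, and CD45-positive cells were depleted. Each pool was digested on its own, so digestion and treatment cannot be told apart. Each group is therefore 1 library, the mice cannot be told apart, the labels name no vehicle injection for the untreated mice, and no test between the groups was possible: all intervals below are exact 95% intervals that cover counting error only, neither the variation between cells nor that between mice.

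The untreated library held 6076 barcodes and 70266983 UMIs, of which 41.2% were from haemoglobin genes, and the calcitriol library 4562 barcodes and 60392557 UMIs, of which 10.6% were. After filtering, 4436 and 3693 cells remained, with medians of 10990.0 and 12258 UMIs per cell. The libraries shared 8 barcodes, 2 of them among the kept cells. Clustering was run without the chemokine ligand genes among its variable genes and gave 24 clusters, of which 23 were named from cell type markers. The classes (untreated and calcitriol cells) were fibroblast-like (435 and 668), endothelial-like with high *Flt1* (231 and 272), endothelial-like with high *Prox1* (37 and 37), smooth muscle or pericyte-like (44 and 77), osteoblast-like (349 and 330), osteocyte-like (81 and 192), chondrocyte-like (235 and 463), tendon-like (377 and 477), synovial lining or articular surface-like (250 and 713, called synovial-like below), Schwann-like (57 and 22) and erythroid-like (2307 and 434). The remaining cluster of 41 cells was left unnamed because it held cells of more than 1 kind. The short name synovial-like covers both synovial lining and articular surface, which the class does not separate. Of its 963 cells, 844 were in the cluster led by *Msmp* and *Cytl1*, which counted 4 markers of this class and 3 chondrocyte markers. The Schwann-like cluster also had skeletal muscle genes such as *Acta1* and *Mylpf* among its leading genes, and no ratio between libraries is given for it. *Ptprc*, which encodes CD45, was at 0 in every untreated class compared and had at most 2 UMIs in a calcitriol class, so the marker that defines white blood cells was at or near 0 in the 9 classes whose libraries are compared.

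Chemokines are small secreted proteins that bind G protein-coupled receptors and direct the movement of leukocytes and progenitor cells. Inflammatory chemokines are switched on quickly, in stromal and immune cells alike, by NF-kappaB, AP-1 and interferon-driven transcription factors, whereas homeostatic chemokines are made steadily and set the niches where cells live, as CXCL12 does for haematopoietic stem cells in bone marrow. Freshly digested tissue is also known to switch on immediate early genes and some chemokines during enzymatic dissociation, before the cells are lysed.

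Of the 26 detected genes, 18 had a RefSeq promoter window (build GRCm38.p6), and *Ccl2*, *Ccl4*, *Ccl5*, *Ccl7*, *Ccl11*, *Cxcl5*, *Cxcl16* and *Cxcl17* had none. The 250 bases before the annotated start of 4 genes on chromosome 5 are shown because 3 of them are inducible genes with matches to the NF-kappaB motif, and the remaining gene, *Cxcl13*, differed widely between the libraries in fibroblast-like cells and held no such match. The windows are chr5:90890995-90891244 on the plus strand for *Cxcl1*, chr5:90903649-90903898 on the plus strand for *Cxcl2*, chr5:92348890-92349139 on the minus strand for *Cxcl10* and chr5:95956689-95956938 on the plus strand for *Cxcl13*, each read 5′ to 3′ on the gene's strand. Capitals mark matches to the NF-kappaB motif and, in *Cxcl10* only, also the core of the interferon-stimulated response element (ISRE).
Cxcl1: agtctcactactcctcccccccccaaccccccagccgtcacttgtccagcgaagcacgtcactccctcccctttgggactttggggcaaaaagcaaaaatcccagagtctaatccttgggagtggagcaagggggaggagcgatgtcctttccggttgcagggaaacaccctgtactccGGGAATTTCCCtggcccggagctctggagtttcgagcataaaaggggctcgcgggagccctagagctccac
Cxcl2: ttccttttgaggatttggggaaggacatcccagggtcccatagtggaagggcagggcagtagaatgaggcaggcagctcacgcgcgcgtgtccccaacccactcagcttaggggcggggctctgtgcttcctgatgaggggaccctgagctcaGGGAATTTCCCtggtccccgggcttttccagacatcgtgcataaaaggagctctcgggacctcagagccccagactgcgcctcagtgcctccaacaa
Cxcl10: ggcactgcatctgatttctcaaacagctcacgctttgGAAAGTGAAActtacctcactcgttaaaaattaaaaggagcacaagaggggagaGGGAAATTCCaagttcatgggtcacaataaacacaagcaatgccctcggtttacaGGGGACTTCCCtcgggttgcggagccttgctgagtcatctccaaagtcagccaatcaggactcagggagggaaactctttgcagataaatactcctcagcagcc
Cxcl13: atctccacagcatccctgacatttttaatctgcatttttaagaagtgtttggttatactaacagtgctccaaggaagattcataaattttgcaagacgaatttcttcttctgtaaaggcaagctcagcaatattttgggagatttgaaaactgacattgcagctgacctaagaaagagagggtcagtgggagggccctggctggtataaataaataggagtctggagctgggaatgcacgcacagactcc
Counted backwards from the start, the NF-kappaB matches began at −71 and −70 in *Cxcl1*, at −97 and −96 in *Cxcl2*, and at −159, −104 and −103 in *Cxcl10*, where neighbouring positions are the same bases read on both strands. The neighbouring *Cxcl3* had such a match at −73 and −72, and *Ccl20* at −80. On both strands, the NF-kappaB motif was found in 8.23% of the 27025 genes with a window and in 7 of 27 chemokine ligand genes with one. The ISRE core (GAAA, any 2 bases, then GAAA again) was in 3.46% of all genes and in 3 of the chemokine ligand genes (*Cxcl10*, *Ccl19* and *Cxcl14*), and the AP-1 motif TGANTCA was in 7.82% and in 4. The direct repeat bound by the vitamin D receptor was in 0.044% of all genes and in 0 of these, which says only that those letters were not in these windows. A match describes letters and is not evidence of a bound site.

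Summed over all members, the fibroblast-like class held 53.2% of the 197363 chemokine ligand UMIs. Levels are given as CPM, counts scaled by total, in which the UMIs of a gene are divided by those of all genes in the same class and library. They compare 1 gene between classes or libraries, because UMIs were counted near the 3′ end and levels of different genes are not on a common scale. The sums below add genes whose levels are not on a common scale. They were highest in the unnamed cluster described below, at 16039 CPM in untreated and 8475.5 in calcitriol cells. The fibroblast-like class summed to 8559 CPM in untreated and 6666 in calcitriol cells. The smooth muscle-like class had 5907 and 5706.5, the *Prox1*-high endothelial-like class 8502.5 and 6386, and the *Flt1*-high endothelial-like class 2612 and 1395. *Ccl21a* alone gave 7149 and 5555 CPM of the *Prox1*-high sums. The Schwann-like class had 2787 and 1940. Skeletal classes were lower, with 1333 and 1099.5 CPM in tendon-like, 752 and 1072 in chondrocyte-like, and 419 and 527 in osteoblast-like cells. The erythroid-like class, which is not expected to make these proteins, had 27.7 and 34.4 CPM. Its values serve as a comparison level that may include free RNA in the droplets, which was not estimated. Of its 700 untreated UMIs, 315 were of *Cxcl10*. The same cluster was highest in both libraries for 20 of the 26 genes.

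**Figure D1:**
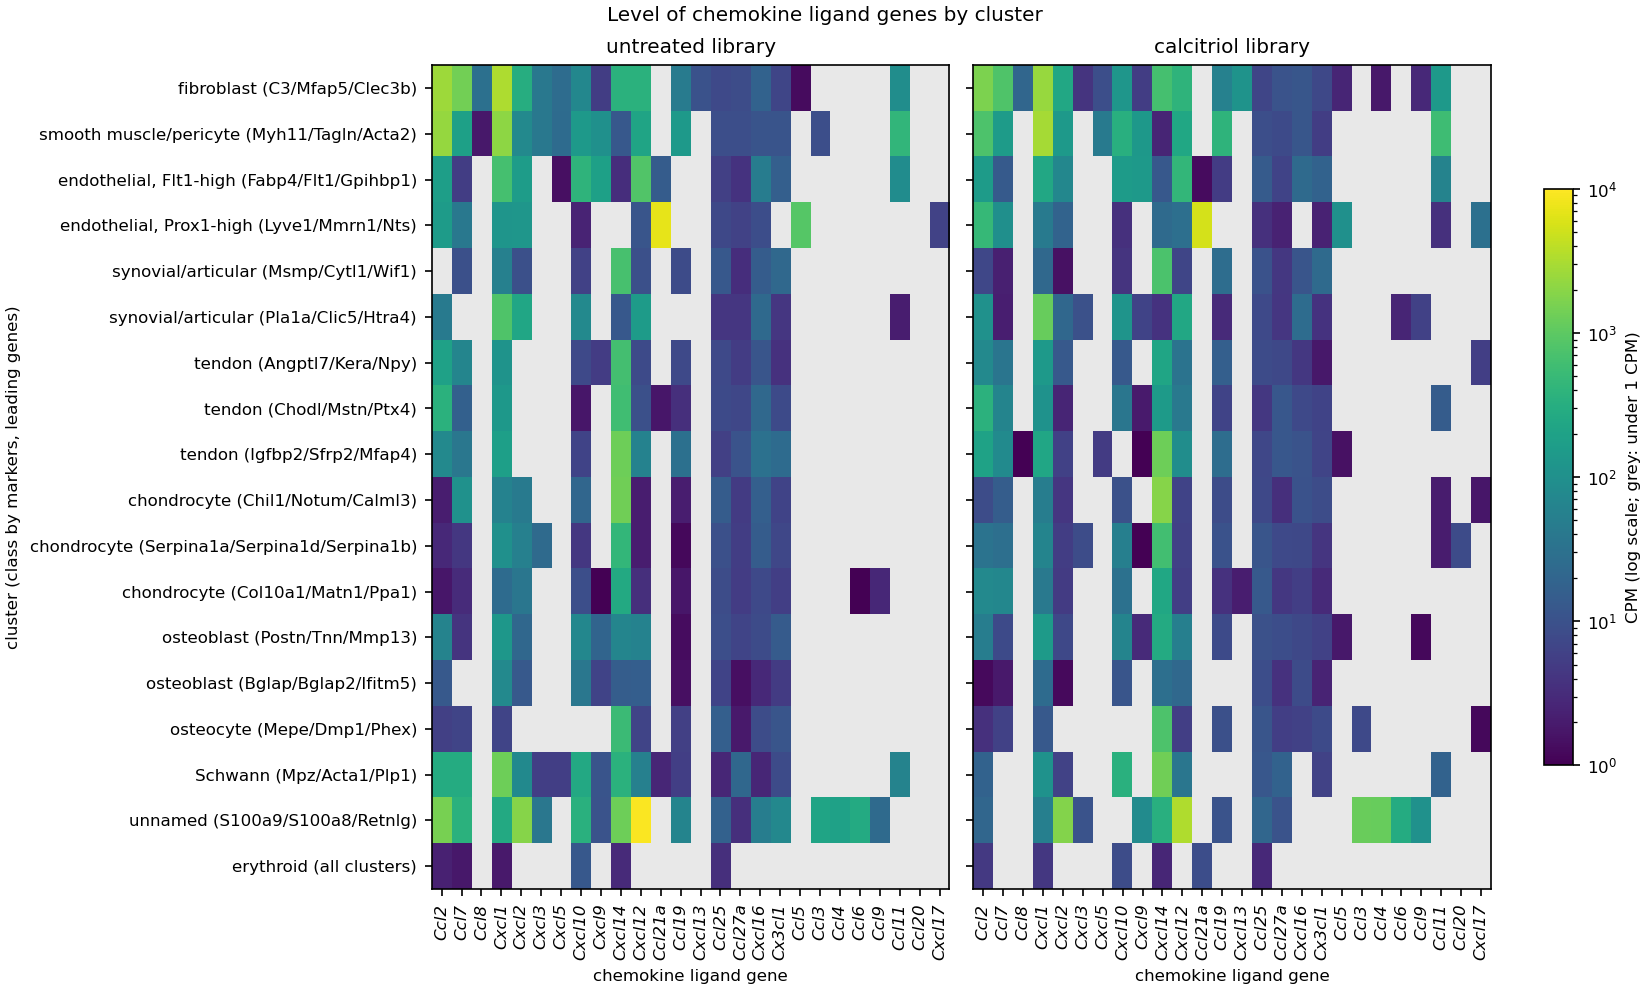
Level of the 26 detected chemokine ligand genes (columns) by cluster (rows) in the untreated (left) and calcitriol (right) library. Colours give CPM on a logarithmic scale with grey below 1 CPM. Columns are grouped by target receptor or by kind, such as homeostatic or membrane-bound. Rows are named by class and leading genes, and the erythroid-like clusters are pooled in a shared row. *Ccl2*, *Ccl7* and *Cxcl1* were bright in the fibroblast-like row of both libraries, *Ccl21a* was bright in the *Prox1*-high endothelial-like row, and *Cxcl14* ran across the tendon-, chondrocyte- and synovial-like rows.

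CCR2 is the receptor that draws monocytes out of bone marrow and into tissue. Its ligand genes *Ccl2* and *Ccl7*, and the related gene *Ccl8*, had most of their UMIs in fibroblast-like cells. *Ccl2* (chromosome 11, 82035571 to 82037453, plus strand) was at 2606 CPM (2563 to 2650) in untreated and 1631 CPM (1605 to 1658) in calcitriol fibroblast-like cells. *Ccl7*, its neighbour on the chromosome (82045712 to 82047525), was at 1391 CPM (1359.9 to 1423) and 801 CPM (783 to 820). Both were lower in the calcitriol library, by less than 2-fold, with log2 ratios of calcitriol over untreated of −0.68 (−0.71 to −0.64) and −0.80 (−0.84 to −0.75). Fibroblast-like cells held 79.5% of all *Ccl2* and 87.9% of all *Ccl7* UMIs, shares that also depend on how many cells the class held. *Ccl8*, which had fewer UMIs, was nearly restricted to them, with 98.3% of its 357 UMIs there, at 30.5 CPM (26.0 to 35.5) and 21.1 CPM (18.2 to 24.4). *Ccl12*, the remaining gene of this group, had 3 UMIs in all.

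The share of fibroblast-like cells with a *Ccl2* UMI was 41.4% (36.7 to 46.2) in the untreated and 34.0% (30.4 to 37.7) in the calcitriol library, at median depths of 10423 and 11340.0 UMIs per cell. In erythroid-like cells, at medians of 10427 and 9865 UMIs, it was 1.91% and 3.46%. With every cell thinned to 2000 UMIs, which left out 2 untreated and 8 calcitriol fibroblast-like cells, the shares were 30.7% and 25.8%. The transcript was thus carried by a sizeable share of these cells in both libraries, far above the share in erythroid-like cells.

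Outside the named clusters, 13 of the 20 *Lepr*/*Adipoq* cells described below carried *Ccl2*, with 431 UMIs in all. Among the compared classes, smooth muscle or pericyte-like cells were next for *Ccl2*, and their untreated level was near the fibroblast-like one. There the libraries stood further apart, with 2368 CPM (2242 to 2500) in 44 untreated cells against 760 CPM (699 to 824) in 77 calcitriol cells, a log2 ratio of −1.64 (−1.78 to −1.50). The ratio stayed past 2-fold under every alternative setting, between −1.78 and −1.44, and was −1.47 without the cell with the most UMIs in each library. *Prox1*-high endothelial-like cells went the other way, with 155 CPM (129 to 184) against 470 CPM (425 to 518) and a log2 ratio of 1.60 (1.31 to 1.91). There, however, 1 calcitriol cell held 213 of 395 *Ccl2* UMIs, the share of cells with a UMI was 45.9% against 35.1%, and without the top cell of each library the ratio was 1.06. *Ccl7* in the same cells was at 39.9 and 97.5 CPM, and its ratio of 1.29 became 0.78 without the top cell.

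Among skeletal classes, tendon-like cells kept a *Ccl2* level of 192 CPM (180 to 205) and 189 CPM (179 to 200), and the interval of their log2 ratio spanned 0 (−0.15 to 0.10). Their 3 clusters did not move together: the cluster led by *Igfbp2* and *Sfrp2* went from 75.8 to 201 CPM, that led by *Angptl7* from 192 to 75.5, and that led by *Chodl*, a tendon marker, from 355 to 373. Osteoblast-like cells had 51.9 and 38.2 CPM. In chondrocyte-like cells *Ccl2* was at 2.22 CPM (1.24 to 3.66) and 42.0 CPM (38.4 to 45.9), but 310 of the 490 calcitriol UMIs came from 1 cell of the *Col10a1*-led cluster and the share of cells with a UMI was 6.38% and 7.56%. The log2 ratio of 4.24 (3.51 to 5.09) ranged from 0.84 to 4.27 over the alternatives. Synovial-like cells went from 5.22 to 25.5 CPM, with 3 of 250 and 44 of 713 cells positive, and the log2 ratio of 2.29 was 0.74 after thinning.

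Within the fibroblast-like class the transcripts were concentrated in few cells. The median cell had 0 *Ccl2* UMIs in both libraries, and the highest 44 of 435 and 67 of 668 cells held 77.8% and 82.8% of the UMIs, where single cells reached 640 and 714 UMIs. For *Ccl7* these shares were 69.0% and 77.7%. *Cxcl1* was more widely spread, with 63.9% and 56.9% of the UMIs in the same number of top cells and medians of 5 and 4 UMIs per cell. Cells with at least 50 *Ccl2* UMIs numbered 68 of 435 and 80 of 668.

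**Figure D2:**
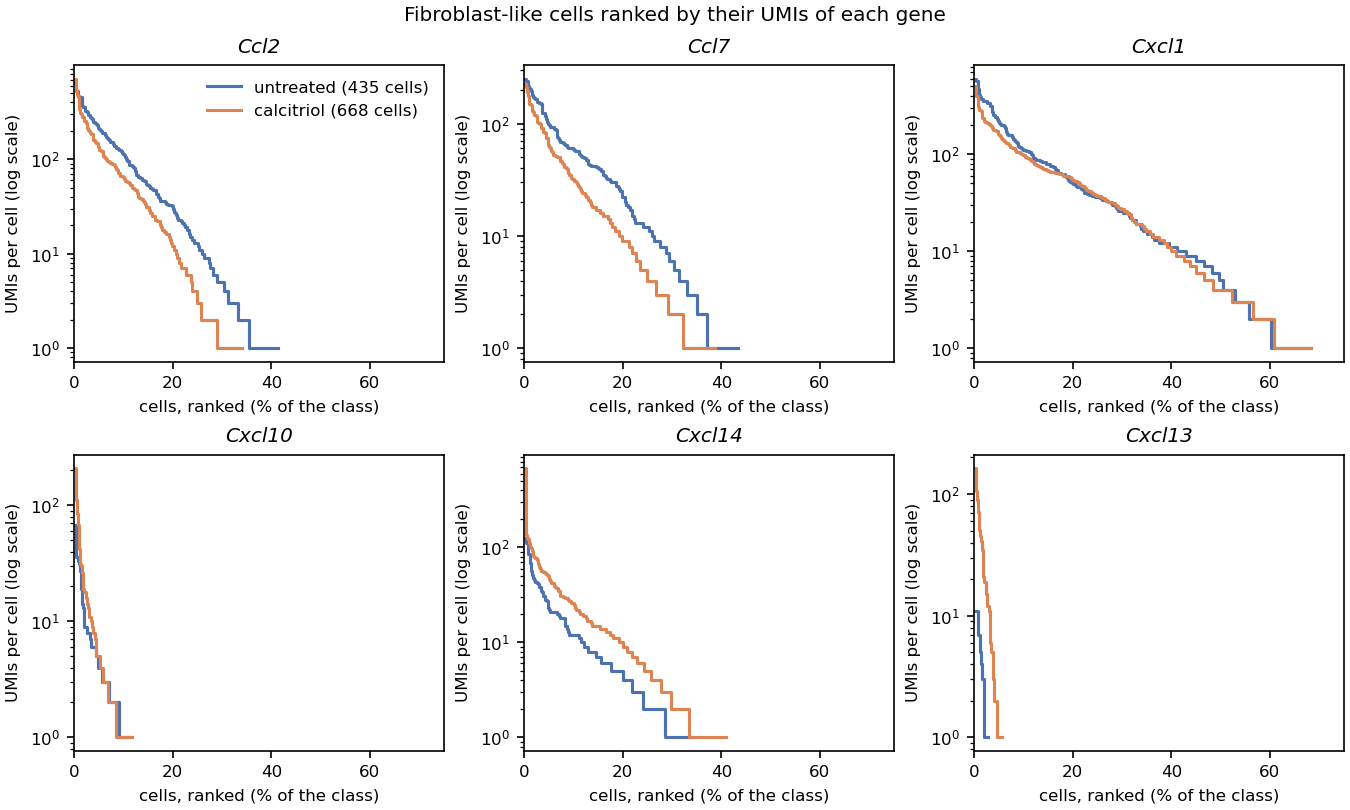
Fibroblast-like cells of each library ranked by their UMIs of 6 chemokine ligand genes, with the rank as percent of the cells in the class on the horizontal axis and UMIs per cell on a logarithmic vertical axis (untreated 435 cells, calcitriol 668 cells). The *Ccl2* and *Ccl7* curves of the untreated library lay above those of the calcitriol library over most ranks, the *Cxcl1* curves nearly coincided over the lower ranks, and the *Cxcl14* and *Cxcl13* curves of the calcitriol library lay above.

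*Ccl2* and *Ccl7* were largely detected together. After thinning, *Ccl2* was present in 67.4% of the 135 untreated fibroblast-like cells with a *Ccl7* UMI and in 14.1% of the 298 without, and in the calcitriol library in 54.4% of 182 and 14.9% of 478. Cells with and without *Cxcl1* differed in the same direction (48.4% against 11.5% untreated, 37.7% against 12.7% calcitriol), as did cells with and without *Cxcl2* (65.9% against 27.0%, and 66.7% against 22.5%). The homeostatic genes separated the cells less, with 35.5% against 28.8% and 36.3% against 21.1% for *Cxcl12*. These are counts of cells within 1 library each, and no test was made of them. By *Pi16*, a marker of a fibroblast state, *Ccl2* was at 2156 CPM in the 96 untreated cells with a *Pi16* UMI and 2726 in the 339 without, and at 1656 and 1625 in the calcitriol library. At a clustering resolution of 1.2 the class split. A cluster of 125 untreated and 219 calcitriol cells then had *C3*, *Ccl7*, *Ccl2*, *Cxcl1*, *Cxcl13* and *Pi16* among its leading genes. Leaving out clusters past any quality limit gave a similar cluster of 122 and 198 cells. Levels are not given by these clusters.

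Digestion stress was looked at through a list of 32 dissociation-induced genes, such as *Fos*, *Jun*, *Egr1*, *Atf3* and the heat shock genes *Hspa1a* and *Hspa1b*. In the fibroblast-like class the list summed to 26364 CPM in untreated and 26362 in calcitriol cells, all 32 genes had at least 50 UMIs, and 0 of them differed by 2-fold. The list was thus high and nearly equal in both libraries while *Ccl2* and *Ccl7* were lower in the calcitriol one. Across cells, those with a *Ccl2* UMI had somewhat fewer stress-list UMIs than those without (mean 53.7 against 59.7 per 2000 UMIs in the untreated library, 52.8 against 61.5 in the calcitriol library) and *Fos* was present in 49.6% of them against 70.7%, and in 56.5% against 71.6%. They had more UMIs of an 18-gene NF-kappaB pathway and feedback list (8.22 against 4.93, and 7.29 against 4.70) and *Il6*, an inflammatory cytokine gene, was present in 29.3% of them against 12.0%, and in 44.1% against 18.2%. No test was made across cells.

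When the cells of each library were ranked by stress-list UMIs and divided into 3 groups of equal size, *Ccl2* was present in 27.6%, 37.5% and 27.1% of untreated cells from the lowest to the highest group, and in 30.0%, 27.7% and 19.5% of calcitriol cells. *Cxcl1* was present in 33.8%, 61.1% and 61.1% of untreated cells. In the calcitriol library its shares were 42.3%, 57.3% and 57.3%. *Cxcl10* was present in 2.07%, 7.64% and 11.8% of untreated and in 3.64%, 5.0% and 6.82% of calcitriol cells. The shares of cells with *Cxcl1* and *Cxcl10* were thus lowest in the lowest stress group, while the mean *Ccl2* UMIs were lowest in the highest group (6.46, 6.18 and 1.92 per untreated cell, 4.33, 2.79 and 0.945 per calcitriol cell). The mean *Cxcl1* UMIs were also lowest in the highest group (5.8, 7.99 and 4.04 untreated, 5.43, 5.57 and 4.4 calcitriol), so share and mean did not run together for *Cxcl1*. In *Flt1*-high endothelial-like cells the share with *Cxcl1* was also higher with more stress-list UMIs, at 13.8%, 22.4% and 36.8% in the untreated and 13.6%, 24.2% and 36.9% in the calcitriol library. Each thinned cell holds 2000 UMIs in all, so these are relative amounts. Whether digestion itself caused the chemokine levels was not tested, as no undigested sample was analysed here.

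**Figure D3:**
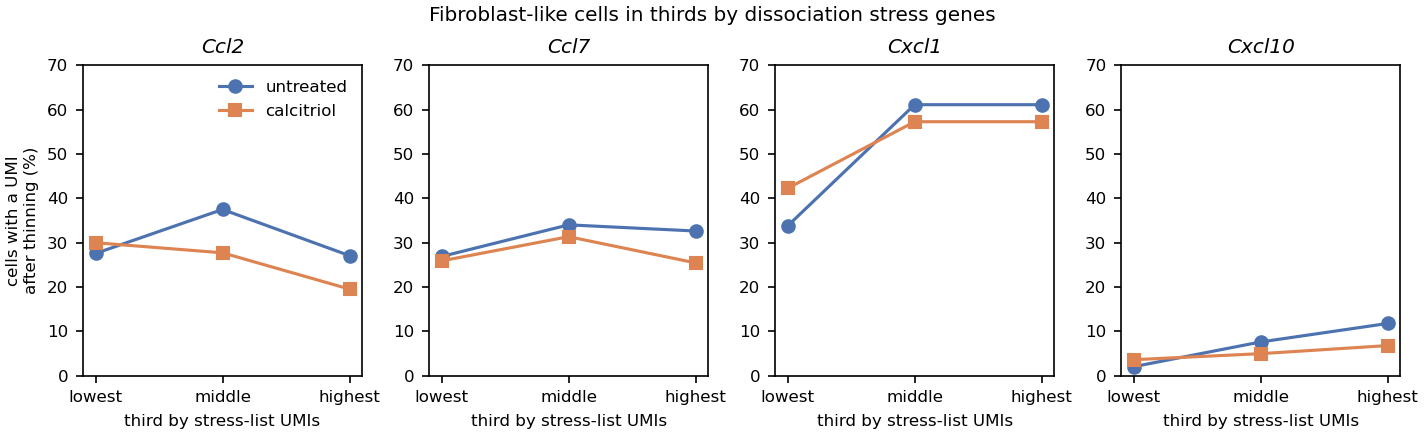
Percent of fibroblast-like cells with a UMI of *Ccl2*, *Ccl7*, *Cxcl1* or *Cxcl10* after thinning every cell to 2000 UMIs, in 3 equal groups of cells ranked by UMIs of the 32 dissociation stress genes (144 or 145 untreated and 220 calcitriol cells per group). *Cxcl1* was lower in the lowest group than in the other groups of both libraries. *Ccl2* was lowest in the highest group of the calcitriol library, while in the untreated library it was highest in the middle group and nearly equal in the others.

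The ligands of CXCR2, the neutrophil receptor, lie side by side on chromosome 5. *Cxcl1* (90891241 to 90893115, plus strand), the mouse KC protein gene whose promoter window is printed above, was the most counted member with 52180 UMIs, 73.1% of them in fibroblast-like cells. It was at 3169 CPM (3121 to 3217) in untreated and 2381 CPM (2349 to 2414) in calcitriol fibroblast-like cells, in 68.0% and 68.4% of cells against 1.82% and 3.46% of erythroid-like cells. The log2 ratio was −0.41 (−0.44 to −0.38), and since the share of cells did not differ, the difference lay in the UMIs per positive cell. Smooth muscle-like cells had 2113 CPM (1994 to 2237) and 2897 CPM (2777 to 3020), so that they ranked below fibroblast-like cells in the untreated and above them in the calcitriol library. The share of smooth muscle-like cells with a *Cxcl1* UMI went the other way, with 33 of 44 untreated and 43 of 77 calcitriol cells. After thinning it was 65.9% and 43.9%. The highest cell held 202 of 1174 untreated and 389 of 2204 calcitriol UMIs, and the log2 ratio ranged from 0.12 to 0.46 over the alternatives. Among the compared classes the *Pla1a*- and *Prg4*-expressing synovial-like cluster followed, with 800 and 1192 CPM, while the other synovial-like cluster, led by *Msmp* and *Cytl1*, had 54.3 and 22.8. Schwann-like cells had 1328 CPM in 14 of 57 untreated and 110 CPM in 3 of 22 calcitriol cells.

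*Flt1*-high endothelial-like cells had *Cxcl1* at 667 CPM (632 to 703) and 255 CPM (235 to 276). This was a log2 ratio of −1.39 (−1.53 to −1.25), past 2-fold under every alternative (−1.42 to −1.02), although the share of positive cells was 34.6% and 36.0%. *Prox1*-high cells had 123 and 45.2 CPM, where 68 of the 99 untreated UMIs were in 1 cell and the ratio of −1.45 became −0.09 without the top cell. Osteoblast-like (121 and 120 CPM), tendon-like (142 and 161) and chondrocyte-like cells (60.5 and 51.2) differed little, and osteocyte-like cells had few UMIs, at 6.63 and 13.2 CPM.

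*Cxcl2*, the MIP-2 gene, was scarcer and lay in fewer cells, with 13.8% and 12.6% of fibroblast-like cells positive and 98.8% and 99.2% of its UMIs there in the highest 44 and 67 cells. Its fibroblast-like level was 315 CPM (300 to 330) and 253 CPM (243 to 264). In skeletal classes it was lower in the calcitriol library. Chondrocyte-like cells went from 45.1 CPM (40.2 to 50.5) to 4.89 (3.70 to 6.34), synovial-like cells from 35.8 (30.2 to 42.1) to 5.29 (4.08 to 6.74) and osteoblast-like cells from 20.0 (16.7 to 23.7) to 5.93 (4.22 to 8.11). These 3 log2 ratios, −3.21, −2.76 and −1.75, were past 2-fold under every alternative. They rest on 20, 8 and 14 positive untreated cells, and in the synovial-like class 1 untreated cell held 102 of 144 UMIs, without which the ratio was −1.42. Within the chondrocyte-like class all 3 clusters were lower, from 42.9 to 4.30, from 56.0 to 5.39 and from 37.1 to 4.92 CPM. The tendon-like class was the exception, with 2 UMIs in the untreated library against 51 in 10 calcitriol cells, a log2 ratio of 4.30. After thinning the untreated count was 0, so the 0.67 found there is a lower bound from the floor of 3 counts. *Flt1*-high endothelial-like cells had 165 and 70.4 CPM. That ratio of −1.22 was −0.25 as a mean over cells and −0.51 after thinning.

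*Cxcl3* and *Cxcl5* were carried by a handful of cells. *Cxcl3* in fibroblast-like cells was at 39.3 CPM (34.1 to 44.9) and 3.94 CPM (2.74 to 5.47), from 8 of 435 and 7 of 668 cells, and 3 untreated cells with 95, 61 and 30 UMIs gave most of the 210 untreated UMIs. The log2 ratio of −3.32 (−3.88 to −2.80) was −3.05 without the top cells. *Cxcl5* was at 25.8 CPM (21.7 to 30.5) and 9.0 CPM (7.13 to 11.2) in 9 and 9 cells, with a log2 ratio of −1.52 (−1.94 to −1.11). In smooth muscle-like cells *Cxcl5* was seen in 1 of 44 and 4 of 77 cells, at 25.2 and 44.7 CPM. *Cxcl3* there had 22 UMIs in 4 untreated cells and 0 in 77 calcitriol cells, where 3 counts, the limit that a count of 0 allows, would be 3.90% of cells with a UMI. With so few cells, both ratios describe single cells as much as classes.

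*Cxcl9* and *Cxcl10*, the interferon-induced ligands of CXCR3 on activated T cells, were spread over several classes. *Cxcl10* had 1505 UMIs in fibroblast-like, 1205 in *Flt1*-high endothelial-like, 767 in osteoblast-like and 334 in smooth muscle-like cells, whereas *Cxcl9* had 718 of its 1135 UMIs in *Flt1*-high cells. In *Flt1*-high endothelial-like cells *Cxcl9* was at 188 CPM (169 to 207) and 142 CPM (127 to 158), and *Cxcl10* at 405 CPM (378 to 433) and 157 CPM (141 to 174). The share of cells with *Cxcl10* was 25.1% (19.7 to 31.2) and 18.4% (14.0 to 23.5), against 6.37% and 3.46% of erythroid-like cells, and the log2 ratio was −1.36 (−1.55 to −1.18). It ranged from −1.49 to −0.92 over the alternatives. *Cxcl10* was higher in the calcitriol library in several other classes. Fibroblast-like cells went from 72.3 CPM (65.3 to 79.9) to 126 CPM (118 to 133) with similar shares of 11.5% and 11.8%, which were 7.16% and 5.15% after thinning. Few cells carried many of these UMIs: 1 untreated and 5 calcitriol cells had at least 50, and the highest had 68 and 210. Smooth muscle-like cells went from 148 (117 to 183) to 331 (292 to 375), a log2 ratio of 1.17 (0.80 to 1.54). There 10 of 44 cells (22.7%) and 13 of 77 cells (16.9%) were positive, and the highest cell held 38 of 82 untreated and 102 of 252 calcitriol UMIs. Chondrocyte-like cells went from 10.1 to 31.8 CPM, where 152 of 371 calcitriol UMIs were in 1 cell and fewer cells were positive, 6.81% against 3.89%. Erythroid-like cells had 12.5 and 8.54 CPM, so the untreated levels of chondrocyte-like and tendon-like cells (5.78 CPM) were below the erythroid-like one. *Cxcl10* had 315 UMIs in 147 untreated erythroid-like cells, where *Cxcl1* had 47 UMIs. Whether erythroid-like cells made *Cxcl10* themselves was not tested, so this level need not be background. In tendon-like cells the ratio of 1.34 turned to −0.75 when clusters past any quality limit were left out. Osteoblast-like cells had 64.9 and 51.5 CPM. Among calcitriol fibroblast-like cells *Cxcl10* was at 352 CPM in the 129 with a *Pi16* UMI and 72.9 in the 539 without, and among untreated ones at 57.8 and 76.2. The shares of positive cells stood closer, at 16.3% and 10.8% in the calcitriol and 12.5% and 11.2% in the untreated library. *Cxcl9* in osteoblast-like cells was at 16.5 (13.6 to 19.9) and 2.28 (1.28 to 3.76) CPM, a log2 ratio of −2.86 that was −0.95 as a mean over cells.

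Of the homeostatic chemokines, *Cxcl12* (chromosome 6, 117168535 to 117181367), the retention signal for haematopoietic stem cells and B cell precursors, was highest in the unnamed cluster described below. Among the compared classes it was highest in *Flt1*-high endothelial-like cells, at 826 CPM (787 to 866) and 452 CPM (425 to 480), followed by fibroblast-like cells at 355 (339 to 371) and 402 (389 to 416) and smooth muscle-like cells at 216 (179 to 258) and 239 (206 to 277). The counting intervals of these neighbours did not overlap in either library. The endothelial log2 ratio was −0.87 (−0.98 to −0.76), with 63.2% and 54.0% of cells positive. In stroma it was present in 58.6% and 61.7% of fibroblast-like and 43.6% and 37.9% of osteoblast-like cells. Tendon-like cells went from 25.0 (20.7 to 29.8) to 54.5 CPM (48.9 to 60.6), a log2 ratio of 1.13 (0.82 to 1.44), and all 3 tendon-like clusters were higher, from 8.02 to 33.9, from 9.62 to 41.1 and from 58.8 to 93.0 CPM. Osteocyte-like cells had only 6.63 and 5.62 CPM.

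*Cxcl14* (chromosome 13, 56288643 to 56296551, minus strand), an epithelial and mesenchymal chemokine whose receptor is debated, was counted across the skeletal classes and in fibroblast-like cells. Its highest named cluster was the chondrocyte-like one led by *Chil1* and *Notum*, at 1359.5 CPM (1299.6 to 1421.5) and 1847 CPM (1802 to 1893), with 76.6% and 78.1% of cells positive against 0.954% and 2.53% of erythroid-like cells. The tendon-like cluster led by *Igfbp2* and *Sfrp2* equalled it in the untreated library and did not differ between libraries, at 1328 (1272 to 1386) and 1332 (1282 to 1384). The other tendon-like clusters were lower in the calcitriol library: that led by *Angptl7* went from 642 (608 to 677) to 223 (206 to 241) and that led by *Chodl* from 603 (559 to 649) to 149 (130 to 170) CPM, with positive cells at 70.7% and 42.4%, and at 60.2% and 33.1%. Their log2 ratios were −1.53 (−1.67 to −1.39) and −2.02 (−2.24 to −1.80). In other clusterings the *Chil1*-led and *Igfbp2*-led clusters were named by their number of markers, with no marker of their class among the leading genes. Outside the named clusters, 18 of the 20 *Lepr*/*Adipoq* cells described below carried *Cxcl14*, with 396 UMIs in all.

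Osteocyte-like cells had *Cxcl14* at 532 CPM (489 to 578) and 774 CPM (739.5 to 809), in 46.9% and 45.8% of cells, and it was the only member with at least 50 UMIs there. The log2 ratio of 0.54 ranged from −0.13 to 0.73 over the alternatives, so its direction did not hold under all of them. The chondrocyte-like class as a whole went from 559 to 849 CPM, but the cluster led by *Serpina1a* was the largest of its 3 clusters among untreated cells (85 of 235) and the *Chil1*-led cluster among calcitriol cells (201 of 463). Fibroblast-like cells went from 358 (342 to 374) to 668 (652 to 686), a log2 ratio of 0.90 (0.83 to 0.98), with 33.8% (29.4 to 38.5) and 40.9% (37.1 to 44.7) positive. Without the cell with 687 UMIs among the calcitriol cells the direction held, the alternatives giving 0.67 to 0.96. In osteoblast-like cells the values were 55.3 (49.8 to 61.3) and 219 (207 to 230), where 710 of 1437 calcitriol UMIs were in 1 cell. The log2 ratio of 1.98 was 1.23 without it, and the share of positive cells was 14.6% (11.1 to 18.8) and 23% (18.6 to 28.0).

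*Cxcl13*, the B cell attractant of lymphoid follicles, was, with *Cxcl3* in the other direction, 1 of the 2 members that differed most in fibroblast-like cells. It was at 10.3 CPM (7.74 to 13.4) in the untreated and 115 CPM (108 to 122) in the calcitriol library, from 12 of 435 cells (2.76%, 1.43 to 4.77) and 38 of 668 cells (5.69%, 4.06 to 7.72). No untreated cell had more than 11 UMIs, whereas the 6 highest calcitriol cells had 164, 121, 107, 90, 71 and 66. The log2 ratio of 3.48 (3.09 to 3.90) ranged from 3.13 to 3.84 over the alternatives and was 3.55 without the top cells. Fibroblast-like cells held 98.5% of its 1093 UMIs, the 10 highest cells 72.9%, and erythroid-like cells none. The difference was thus carried by a small set of cells with many UMIs each.

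*Ccl19* and *Ccl21a* are the ligands of CCR7, which brings dendritic cells and T cells into lymphatic vessels and lymph nodes, and they marked separate cells. *Ccl21a* was at 7149 CPM (6965 to 7337) in 37 untreated and 5555 CPM (5397 to 5717) in 37 calcitriol *Prox1*-high endothelial-like cells, and 29 of 37 cells were positive in both libraries. This cluster was led by *Lyve1* and *Mmrn1*, which like *Prox1* are genes known from lymphatic endothelium. *Flt1*-high cells had 14.4 CPM and 1.30 CPM, and erythroid-like cells were at 0.356 and 8.79 CPM, the latter with 32 of 36 UMIs in 1 cell. The log2 ratio was −0.36 (−0.42 to −0.31), and single cells ranged up to 965 and 932 UMIs. *Ccl19* was highest in smooth muscle-like cells, at 144 CPM (114 to 179) and 406 CPM (362 to 454). That log2 ratio of 1.5 (1.14 to 1.87) was past 2-fold under every alternative and was 2.39 without the top cells, with 11 of 44 and 24 of 77 cells positive. It was at 46.2 (40.6 to 52.3) and 56.7 (51.8 to 61.9) CPM in fibroblast-like cells. It was also higher in the calcitriol library in synovial-like cells, from 7.20 (4.82 to 10.3) to 22.6 (20.0 to 25.4) with 8.0% and 17.4% positive, and in chondrocyte-like cells, from 1.63 (0.812 to 2.91) to 7.29 (5.83 to 9.02) with 4.26% and 12.1% positive. The log2 ratios were 1.65 (1.10 to 2.26) and 2.16 (1.25 to 3.22).

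*Ccl25* and *Ccl27a*, known for thymus and gut and for skin, were low throughout, and both overlap another gene on the other strand (*Elavl1* and *Il11ra1*). *Ccl25* lay between 5.77 and 16.1 CPM in the untreated library and 6.86 and 14.3 in the calcitriol library in the 7 classes with at least 45 UMIs of it, against 3.40 and 2.93 CPM in erythroid-like cells, which held 11.2% of its UMIs. *Ccl27a* had 4 UMIs at most in any cell and was at 8.60 and 10.7 CPM in fibroblast-like cells. None of their ratios in classes with at least 50 UMIs passed 2-fold. *Flt1*-high endothelial-like cells, with 45 *Ccl25* UMIs in all, were at 5.77 and 14.3 CPM, in 4.76% and 10.3% of cells.

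*Cxcl16* and *Cx3cl1* differ from the rest in being made as membrane-anchored proteins that can be shed. *Cxcl16* was highest among compared classes in *Flt1*-high endothelial-like cells, at 48.1 CPM (39.1 to 58.5) and 24.2 CPM (18.3 to 31.4), and it was lower in tendon-like cells, from 20.6 (16.8 to 25.1) to 7.18 (5.24 to 9.60), a log2 ratio of −1.52 (−2.06 to −1.0) with 19.1% and 7.76% of cells positive. *Cx3cl1* was at 20.4 (16.2 to 25.3) and 20.1 (17.7 to 22.8) in synovial-like cells and at 16.4 (11.3 to 22.9) and 18.1 (13.1 to 24.5) in *Flt1*-high endothelial-like cells. It was lower in the calcitriol library in tendon-like cells, from 11.6 (8.73 to 15.0) to 4.47 (2.97 to 6.45), and in osteoblast-like cells, from 12.1 (9.62 to 15.1) to 5.02 (3.45 to 7.05). Neither gene was concentrated in single cells, the 10 highest cells holding 5.4% and 8.64% of their UMIs.

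*Ccl11*, the eosinophil attractant eotaxin, was highest in smooth muscle-like cells at 427 CPM (374 to 484) and 562.5 CPM (510.5 to 618), then in fibroblast-like cells at 90.8 (82.9 to 99.3) and 146 (138 to 154), and was present in *Flt1*-high endothelial-like cells at 88.0 (75.7 to 102) and 61.3 (51.7 to 72.3). The fibroblast log2 ratio was 0.69 (0.54 to 0.84) and varied little over the alternatives (0.62 to 0.74), with 19.1% and 22.3% of cells positive. *Ccl20*, the CCR6 ligand, was seen in 2 cells only. A calcitriol cell of the *Serpina1a*-led chondrocyte-like cluster held 32 UMIs, with 40 UMIs of the cartilage gene *Matn3*, and an untreated cell of the same cluster held 1.

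Further inflammatory CC chemokines were sparse. *Ccl5*, a T cell and monocyte attractant, had 827 UMIs, of which 453, 243 and 84 were in 3 *Prox1*-high endothelial-like cells, the first 2 untreated and the last calcitriol. These cells had 50, 346 and 461 UMIs of *Lyve1* and 0 of *Ptprc*, *Cd3e* and *Nkg7*, so the defining T and natural killer cell markers were at 0 in them. The cell with 453 had 1 UMI of *Prox1* and 0 of *Ccl21a*. The class levels of 869 and 101 CPM and their log2 ratio of −3.10 therefore describe these 3 cells. *Ccl3*, *Ccl4*, *Ccl6* and *Ccl9*, macrophage and neutrophil products, were highest in the unnamed cluster, where they were at 217 and 1217, 193 and 1174.5, 277 and 286, and 24.5 and 106 CPM. *Ccl9* was spread more widely, with 28 of its 84 UMIs in fibroblast-like, 15 in synovial-like and 11 in chondrocyte-like cells.

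That cluster held 33 untreated and 8 calcitriol cells. It was split, after its values were seen, into 18 cells with at least 10 UMIs of *S100a8* and *S100a9* together, 20 cells with at least 3 UMIs of *Lepr*, *Adipoq* and *Kitl* together, which are markers of marrow stroma, and 3 other cells. A further count showed that 2 of the 18 also met the stroma limit. All 18 *S100a8*/*S100a9* cells had *Cxcl2* UMIs (lowest 4, median 26.5, highest 102), and 14 had *Ccl6*, 9 *Ccl3* and 15 *Ptprc* UMIs. All 20 *Lepr*/*Adipoq* cells had *Cxcl12* UMIs (lowest 12, median 103.5, highest 350), 18 had *Cxcl14* and 13 *Ccl2*, while *Cxcl2* and *Ptprc* were at 0 in them. Only 1 of the 18 *S100a8*/*S100a9* cells had *Cxcl12* UMIs. The remaining cells included a calcitriol cell with 109 *Ccl3* and 109 *Ccl4* UMIs and an untreated cell with 14 and 49. With 18 untreated and 2 calcitriol *Lepr*/*Adipoq* cells, no level was compared between libraries.

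**Figure D4:**
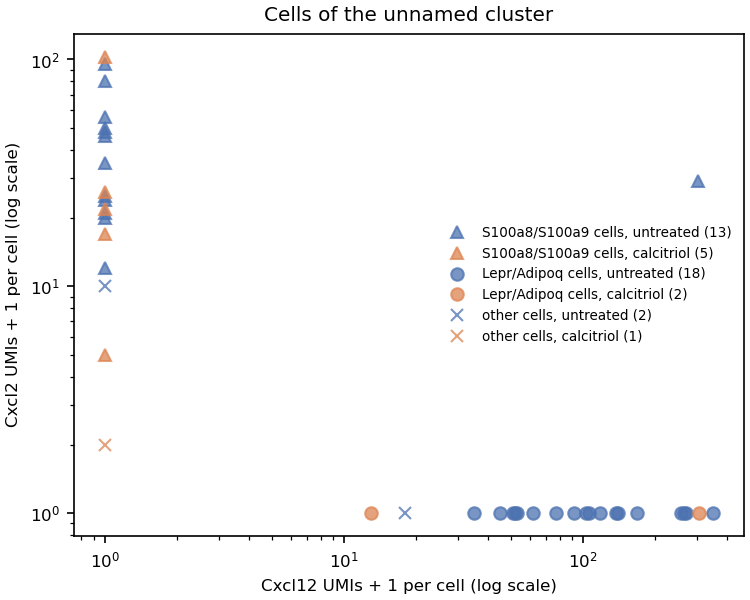
UMIs of *Cxcl12* (horizontal) and *Cxcl2* (vertical), each plus 1 on a logarithmic axis, in the 41 cells of the unnamed cluster, with the kind of cell as symbol and the library as colour. The 20 *Lepr*/*Adipoq* cells lay along the bottom with 12 to 350 *Cxcl12* UMIs and no *Cxcl2*, and the 18 *S100a8*/*S100a9* cells had 4 to 102 *Cxcl2* UMIs, a single one of them with *Cxcl12*.

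*Cxcl17*, a mucosal chemokine, had 61 UMIs and was highest in *Prox1*-high endothelial-like cells, at 6.23 CPM (2.02 to 14.5) in 5 of 37 and 29.7 CPM (19.2 to 43.9) in 16 of 37 cells. No cell of that cluster had more than 4 UMIs, erythroid-like cells had none, and the class held 30 UMIs in all, fewer than the 50 asked of a ratio.

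Across the classes, 92 pairs of a gene and a class had at least 50 UMIs over both libraries, and 34 of these had a ratio of at least 2-fold, 18 lower and 16 higher in the calcitriol library. The shares of all genes past the same fold are given beside each count. In fibroblast-like cells 2 of 18 members were lower (*Cxcl3* and *Cxcl5*; 3.12% of all genes were) and 1 was higher (*Cxcl13*; 2.9% of all genes). The median log2 ratio of the members was −0.07, beside −0.09 over all genes. In *Flt1*-high endothelial-like cells 3 of 9 were lower (*Cxcl1*, *Cxcl2* and *Cxcl10*; 2.94% of all genes) and 0 higher (1.7%), with a member median of −0.87 beside −0.04. In *Prox1*-high cells 3 of 6 were lower (*Ccl5*, *Cxcl1* and *Cxcl2*; 2.35%) and 2 higher (*Ccl2* and *Ccl7*; 3.98%). There *Cxcl2* was at 125 and 19 CPM with 60 of 100 untreated UMIs in 1 cell, and its log2 ratio of −2.71 was 0.0 after thinning. Smooth muscle-like cells had 1 of 9 lower (*Ccl2*; 3.19%) and 2 higher (*Ccl19* and *Cxcl10*; 3.35%).

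Osteoblast-like cells had 3 of 12 members lower (*Cxcl2*, *Cxcl9* and *Cx3cl1*; 2.59% of all genes) and 2 higher (*Ccl7* and *Cxcl14*; 3.38%). In chondrocyte-like cells 2 of 13 were lower (*Cxcl2* and *Cxcl3*; 3.89%) and 4 higher (*Ccl2*, *Ccl19*, *Cxcl10* and *Cxcl12*; 3.85%). Tendon-like cells had 2 of 12 lower (*Cxcl16* and *Cx3cl1*; 4.1%) and 3 higher (*Cxcl2*, *Cxcl10* and *Cxcl12*; 3%). Synovial-like cells had 2 of 12 lower (*Cxcl2* and *Ccl7*; 3%) and 2 higher (*Ccl2* and *Ccl19*; 3.4%). *Ccl7* there had 28 of 34 untreated UMIs in 1 cell, and its log2 ratio of −1.94 was 0.12 without the top cells. Member shares stood above the shares of all genes in most classes, but no class had more than 4 members in a direction, several rest on single cells as given above, and the counts carry no test. Among the 13 alternative settings, the limit of 20 UMIs only admits more genes and could not change a ratio. Of the 34 ratios, 17 were past 2-fold under every one of these settings, 10 lower and 7 higher. The 7 were *Cxcl13* in fibroblast-like, *Ccl2* in *Prox1*-high, *Ccl19* and *Cxcl10* in smooth muscle-like and in chondrocyte-like, and *Ccl19* in synovial-like cells.

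**Figure D5:**
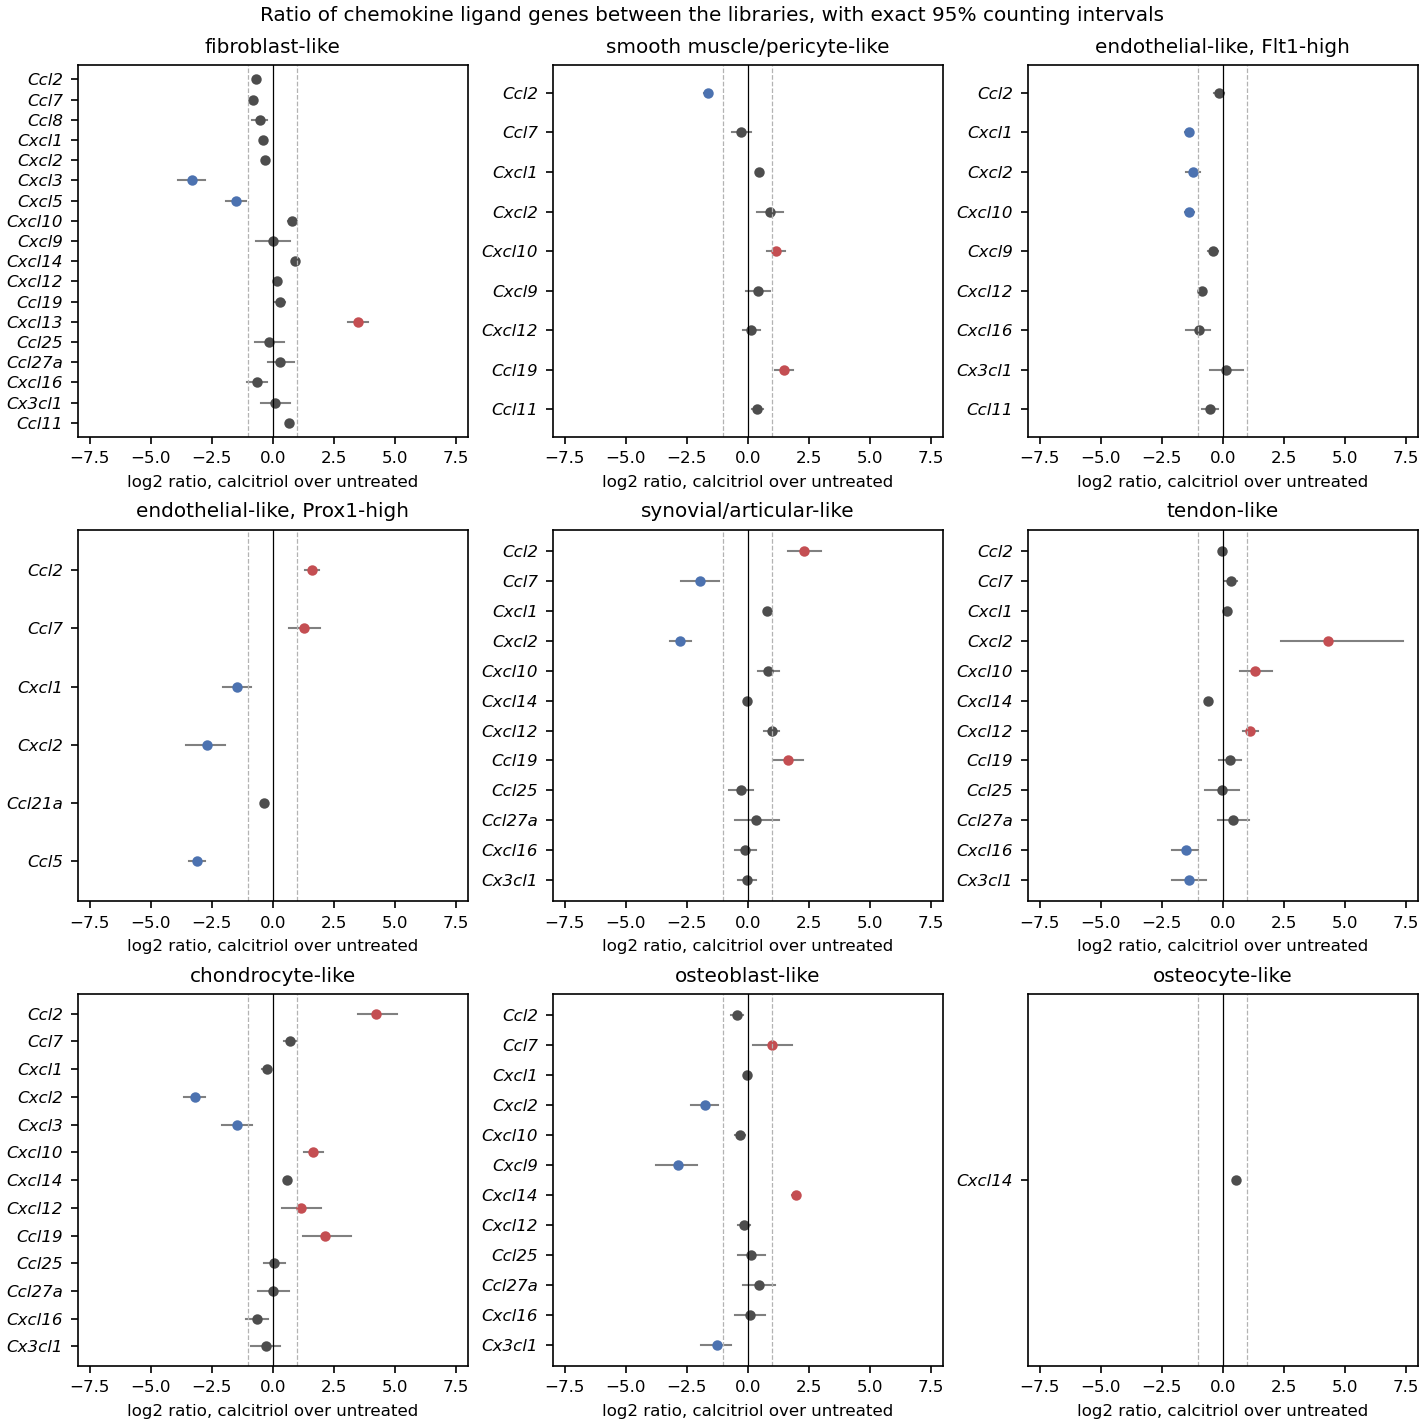
Log2 ratio of calcitriol over untreated CPM (horizontal) for each chemokine ligand gene with at least 50 UMIs in 9 classes, with exact 95% counting intervals as grey lines, dashed lines at 2-fold, and points at least 2-fold lower in blue and at least 2-fold higher in red. Fibroblast-like genes lay between the dashed lines except *Cxcl3*, *Cxcl5* and *Cxcl13*, and 8 of the 9 *Flt1*-high endothelial-like genes lay left of 0.

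Lists of other genes that moved between the libraries are given as values, and their part in the chemokine levels was not tested. The dissociation stress list was higher in the calcitriol library in *Flt1*-high endothelial-like cells (31727 and 40976 CPM), where *Cxcl1*, *Cxcl2* and *Cxcl10* were lower, and in chondrocyte-like cells (15051 and 22253 CPM, with *Hspa1a*, *Hspa1b* and *Nr4a1* past 2-fold). It was nearly level in smooth muscle-like cells (30285 and 29647) and lower in *Prox1*-high cells (40038 and 34000.0), although per *Prox1*-high cell thinned to 2000 UMIs it was higher, with a median of 52 and 69 stress-list UMIs. It was also higher in tendon-like (23459 and 27872), synovial-like (21172 and 25584), osteoblast-like (18086 and 20357) and osteocyte-like cells (16335 and 19948, with 4 genes past 2-fold). The NF-kappaB list was at 2777 and 2598 CPM in fibroblast-like and 3689 and 3927 in *Flt1*-high cells, with 0 of 17 genes past 2-fold in either class. A list of 15 glucocorticoid-responsive genes was higher in every class compared. In fibroblast-like cells it was at 9670.5 and 21788 CPM, with 8 of 15 genes at least 2-fold higher and 0 lower, led by *Pdk4*, a metabolic kinase (log2 ratio 3.12), and *Lcn2* (2.48). In that class 3 of 11 interferon-response genes were at least 2-fold higher (*Ifit1* 2.01, *Irf7* 1.16 and *Ifit2* 1.13) and *Rsad2* was lower (−1.16). *Cxcl10* there was at 72.3 and 126 CPM. The interferon list was also higher in *Flt1*-high (1842.5 and 1948.2 CPM) and osteoblast-like cells (151.78 and 191.14), where *Cxcl10* was lower. It was lower in chondrocyte-like (74.964 and 62.202) and synovial-like cells (97.128 and 83.54), where *Cxcl10* was higher. In smooth muscle-like (451.72 and 730.73) and tendon-like cells (150.04 and 191.07) both were higher. Of other inflammatory cytokines, *Il6* was higher in fibroblast-like cells (log2 ratio 1.04) while *Ccl2* was lower.

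The CD45-positive immune cell list of 15 genes summed to 23.6 and 24.2 CPM in fibroblast-like cells and to 66.9 and 60.9 in *Flt1*-high cells. It was higher in the calcitriol library in synovial-like cells (0.497 and 58.3 CPM), led by *S100a8* (log2 ratio 6.44) and *S100a9* (5.43), while *Ptprc* had 2 UMIs, and in osteocyte-like cells (2.84 and 70.6 CPM), led by *Fcer1g* (4.59), while *Ptprc* was at 0. It was 0 and 3.57 CPM in *Prox1*-high and 7.20 and 10.5 in smooth muscle-like cells.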

How the data were processed

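Single-cell RNA sequencing of femoral cells gave 1 library of untreated and 1 of calcitriol-injected mice. The authors aligned the reads and counted UMIs per gene and barcode with Cell Ranger 4.0.0 on mm10, and the deposited values are raw counts. The submitters' processing notes also name Seurat 3.2.2. Barcodes with at least 200 genes were clustered here with Seurat 5.3.0 in R 4.3.3 (2000 variable genes without the chemokine ligand genes, anchors between the libraries, 30 principal components, resolution 0.8). Each library was first clustered alone, and 2 such clusters whose medians passed all of 3 quality limits (over 10% mitochondrial UMIs, under 1000 genes, under 2000 UMIs) were left out. A doublet score marked 159 (3.43%) and 113 (2.88%) barcodes, which were kept.

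Clusters were named from cell type markers, by a rule set after the clusters were seen. A class needed at least 3 markers, and no cluster with more markers of another class was compared. Counts were summed per class and library and divided by the class total. CPM and ratios have exact Poisson and conditional 95% intervals and shares have Clopper-Pearson intervals. A level or ratio against 0 counts used a floor of 3 counts, which makes it a bound. Ratios were given from 50 UMIs, members were described from 20 UMIs, and "past 2-fold" is a rule of size, since with 1 library per group no test was possible. Shares were also computed after thinning each cell to 2000 UMIs. Intervals were computed with scipy 1.17.1, pandas 2.3.3 and numpy 2.4.6 under Python 3.11.15, and figures were drawn with matplotlib 3.10.9. The counting intervals of ratios were tried on simulated Poisson counts without variation between cells. That checks how they were computed and not whether they suit these data. The members and gene lists were chosen with earlier results of these data known. The alternatives tried were other clusterings, totals, limits, doublet removal, thinning, means over cells and leaving out the highest cell.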

Additional observations from a re-analysis of the deposited data

Results flagged for a closer look

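*Ccl2* differed between the libraries in opposite directions in smooth muscle or pericyte-like cells (log2 ratio of calcitriol over untreated −1.64) and in *Prox1*-high endothelial-like cells (1.60). In the *Prox1*-high cells 1 calcitriol cell held 213 of 395 *Ccl2* UMIs, and the share of positive cells was 45.9% untreated and 35.1% calcitriol. Without the top cell of each library that ratio was 1.06. The difference between the ratios of the 2 classes was not tested, since each group is 1 library. The barcodes left out of the clusters, 2509 in all, held 832 chemokine ligand UMIs, or 51.3 CPM and 0.420% of all such UMIs.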

How the results depend on the processing

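No paired analysis was possible because each group is 1 library. Of the 92 ratios, 31 changed sign or reached 0 under some alternative, 4 of them among the 34 past 2-fold. Without the cell with the most UMIs of the gene, 31 of those 34 stayed past 2-fold. *Cxcl10* in tendon-like cells turned to −0.745 and *Ccl7* in osteoblast-like cells to −0.16 when clusters past any quality limit were left out, and *Ccl7* in synovial-like cells turned to 0.123 without its highest cell. *Cxcl2* in *Prox1*-high cells reached 0.0 after thinning. For these the cause was not tested, apart from the cell left out. Asking 20 rather than 50 UMIs of a ratio admits more genes. That limit gave 2 members at least 2-fold higher in fibroblast-like cells, in place of 1 of 18. Over all classes it gave 27 pairs higher, in place of 16 of 92. The number of pairs admitted at 20 UMIs, the lower pairs among them and the share of all genes are not given. These counts therefore do not show whether members were higher more often than lower, or more often than other genes, at that limit. After thinning to 2000 UMIs, 13 of the 26 genes had the same highest class in both libraries as before. Thinning moved 55 ratios outside their counting interval, and a mean over cells moved 35. Depth limits genes under 50 UMIs and classes with few cells, such as the 44 untreated smooth muscle-like cells.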

Other observations

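Of 23 chemokine receptor genes, 7 had at least 50 UMIs over both libraries and 16 had fewer, among them *Ccr2* with 1, *Ccr7* with 1 and *Cxcr2* with 42. The best counted were atypical receptors, which take up chemokines without classical signalling. *Ackr3*, a CXCL12 scavenger, had 20116 UMIs and was highest in *Prox1*-high endothelial-like cells (573 CPM, 97.3% of cells), followed by fibroblast-like cells (432 CPM). *Ackr2*, a scavenger of inflammatory CC chemokines, was at 124 CPM in the same endothelial-like cells, in 70.3% of cells. *Ackr4*, a scavenger of CCL19 and CCL21, was highest in the *Lepr*/*Adipoq* cells, at 368 CPM. *Cxcr4*, the signalling receptor of CXCL12, had 389 of its 885 UMIs in *Flt1*-high endothelial-like cells (88.5 CPM). *Ccr1* had 77 of its 82 UMIs in the unnamed cluster. *Ccrl2* had 1225 of 1532 UMIs in erythroid-like cells, 28.7% of which carried it. These levels are pooled over both libraries and describe them only.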
